A study of Mus musculus with 79 samples.

Results

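CD33 is an immunoglobulin-like receptor of microglia and other myeloid cells, and variants at its human locus are associated with the risk of Alzheimer's disease. The frontal cortex of APP/PS1 mice infused with an antisense oligonucleotide against Cd33 (CD33 ASO) was set against that of APP/PS1 mice infused with phosphate-buffered saline (PBS). The comparison comprised 18 of the 79 bead arrays of the study, 10 from CD33 ASO animals and 8 from PBS animals, chosen by the tissue and treatment in their labels. It covered the 14581 probes with a detection p-value under 0.05 on 8 or more of the 40 cortical arrays, and these stood for 10094 named genes. Where a gene had several probes, the one with the highest mean over the cortical arrays represented it.

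All animals of both groups were single-housed females of the APP/PS1 line of the Jucker group, in which the transgenes are driven by Thy1 promoter sequence and amyloid plaques form in the cortex. From the age of 18 weeks, a pump that delivered 6 µL daily into the right lateral ventricle was to give CD33 ASO animals 75 µg of oligonucleotide each day over 14 days. PBS animals received vehicle through the same kind of pump. At about 20.5 weeks of age, mostly 17 days after surgery, the frontal cortex of the left hemisphere was collected with a single cut, and total RNA was measured. The same model also held 11 arrays of APP/PS1 animals given a non-target control ASO at the same dose and 11 arrays of wild-type (WT) littermates given PBS, which are cited where they bear on a value. Each cortical array came from a different animal.

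Antisense oligonucleotides pair with their target RNA, and many designs recruit RNase H to cut it. Microglia and border macrophages take up oligonucleotides from the cerebrospinal fluid, and foreign nucleic acid can engage innate sensors in these cells. CD33 carries inhibitory motifs in its cytoplasmic tail and opposes receptors such as TREM2 that signal through the adaptor TYROBP.

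Levels below are normalised log2 signals, and differences are log2 values of CD33 ASO minus PBS. A gene is called where the adjusted p of limma's moderated test, over all 14581 probes, was under 0.05. In RNA from whole tissue, fewer cells of a type and less RNA per cell cannot be told apart.

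The arrays of the groups were alike in depth of detection, with 13136 to 13699 probes detected per array in the CD33 ASO group and 13157 to 13766 in the PBS group. CD33 ASO replicates 9 and 10 stood apart from their label. Their Thy1 levels, 14.01 and 13.81, lay in the range of the WT arrays, whose highest was 14.14, while the other 8 CD33 ASO arrays had 14.54 to 14.76 and the PBS arrays 14.59 to 14.80. These 2 animals were also collected 16 and 13 days after surgery. CD33 ASO replicate 3 and PBS replicate 7 were collected 13 and 14 days after surgery, and the other 14 animals after 17 days. CD33 ASO replicates 3 and 10 were thus collected before the 14 days of infusion had passed. Thy1 also lay in the WT range on control ASO replicates 5 and 8, at 13.99 and 13.96. Results that rest on these arrays are given with and without them, and a fit without CD33 ASO replicates 9 and 10 leaves out the 2 control ASO arrays too. The arrays lay on 5 slides, of which 4 held both groups. Striatal marker genes were detected in these frontal samples: of 16 striatal marker genes, 13 were detected on all 18 arrays, and the mean level of the list was 7.82 to 9.50 across the CD33 ASO arrays and 8.36 to 9.77 across the PBS arrays. Marker genes of excitatory neurons of the cortical layers had mean levels of 9.02 to 9.23 in the CD33 ASO group and 8.98 to 9.13 in the PBS group.

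CD33 ASO changed 217 of 14581 probes (1.49%) against PBS, 100 of them higher (0.686%) and 117 lower (0.802%). At the gene level 168 of 10094 were called (1.66%), 83 higher (0.822%) and 85 lower (0.842%). Of all 10094 genes, 1379 had an unadjusted p under 0.05 and 5146 had a positive difference, and counts within lists are to be read beside these. Most differences were small: 121 of the 168 genes changed by less than 1.5-fold and 12 by at least 2-fold. On the 4 slides that held both groups, 161 of the 168 genes had the same direction on every slide. The genes were called from these same arrays, so a shared direction is largely built in and is no separate check. Slides 3 and 4 held 1 CD33 ASO array each, and slide 5 held 1 PBS array. Without CD33 ASO replicates 9 and 10 the count of probes was 320, of which 54.7% were higher, against 46.1% in the full set, and 180 probes were called both ways. Without CD33 ASO replicate 1 it was 140. Centring arrays on their medians in place of quantile normalisation gave 121 probes, 31.4% of them higher.

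**Figure D1:**
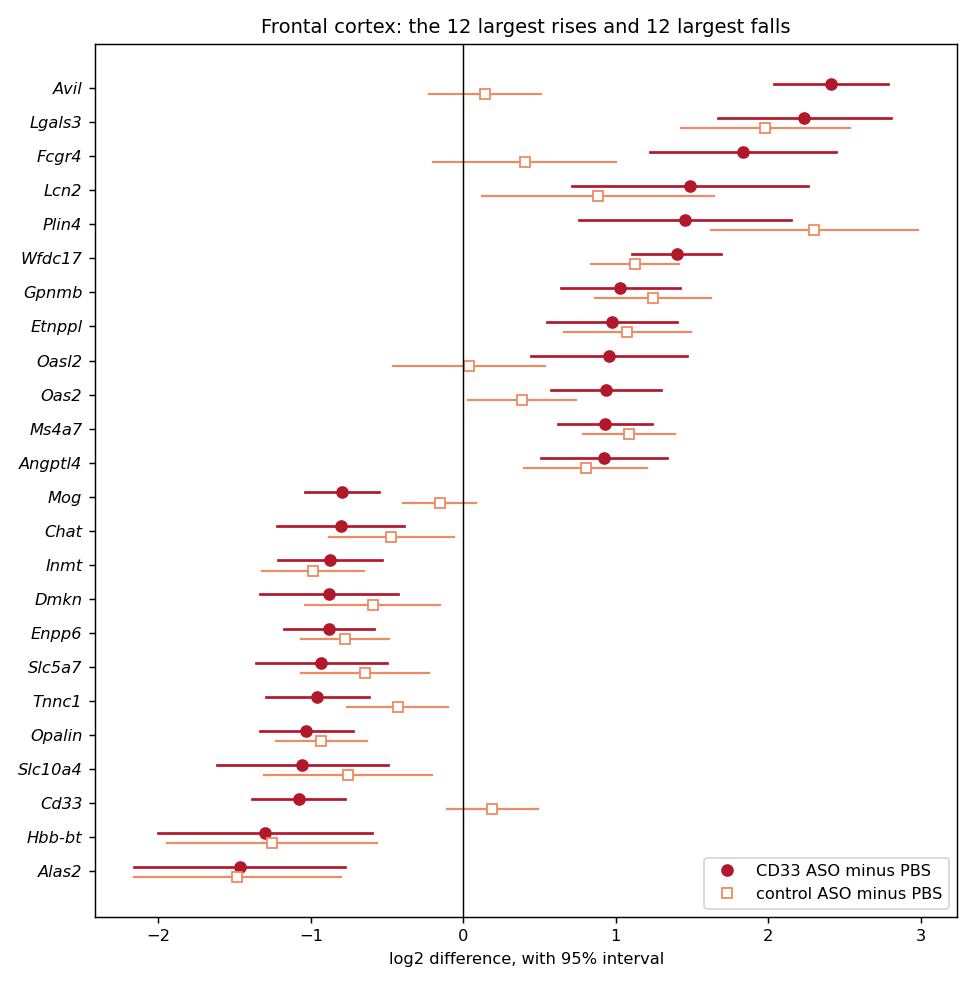
The 12 largest rises and the 12 largest falls among the called genes of the frontal cortex. Filled circles give the log2 difference CD33 ASO minus PBS (10 and 8 arrays) and open squares control ASO minus PBS (11 and 8 arrays), with 95% intervals. The 2 differences share the 8 PBS arrays. Avil has the largest rise, 2.41, and Alas2 the largest fall, -1.47.

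Cd33, the target, was lower in the CD33 ASO group. Its levels were 6.06, 6.39, 5.70, 5.38, 5.77, 5.52, 5.73, 5.85, 4.49 and 5.04 on CD33 ASO arrays 1 to 10, and 6.94, 6.28, 6.42, 6.79, 6.77, 6.92, 6.69 and 6.56 on PBS arrays 1 to 8. All but 1 of the 10 CD33 ASO arrays were below the lowest PBS array, and 3 were below the lowest WT array. The means were 5.59 ± 0.53 and 6.67 ± 0.24 (SD, n = 10 and 8), a difference of -1.08 ± 0.15 (SE, adjusted p = 1.45e-05). The two-sided exact permutation test over the 43758 arrangements of the 18 arrays gave p = 9.14e-05, where 2.29e-05 is the smallest possible. The lowest levels, 4.49 and 5.04, were those of the 2 arrays with WT-like Thy1. Without them the difference was -0.87 (adjusted p = 1.05e-05), and within the 4 shared slides it ran from -1.29 to -0.73. The Cd33 probe was detected on 8 of 10 CD33 ASO arrays and on 8 of 8 PBS arrays. Against control ASO the difference was -1.27 (adjusted p = 7.24e-08), and control ASO minus PBS was 0.19 (adjusted p = 0.758).

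Of the siglec receptors and CD33 partners 6 genes were measured, and besides Cd33 only Mag, which encodes the myelin-associated siglec, was called, at -0.49 (adjusted p = 0.00032). Siglech, a microglial siglec, differed by 0.12, Cd22 by 0.20, and the sialyltransferases St6gal1 and St3gal6 by 0.11 and -0.11, none of them called. Among 11 genes of ITAM and ITIM signalling, 0 were called by limma and 0 had an unadjusted p under 0.05. Tyrobp differed by 0.16 (adjusted p = 0.859) and Trem2 by -0.20 (adjusted p = 0.827). Both rested on replicates 9 and 10: Trem2 was 8.96 and 9.36 there, against 10.55 to 11.31 on the other CD33 ASO arrays and 10.61 to 11.12 on the PBS arrays. Without these 2 arrays Trem2 differed by 0.17 (adjusted p = 0.415) and Tyrobp by 0.44, which was then called (adjusted p = 0.039). Siglech was also called higher in that setting.

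Avil, which encodes the actin-binding protein advillin known from sensory neurons, had the largest rise. It ranged from 5.75 to 7.85 (median 7.13) across the CD33 ASO arrays and from 4.36 to 4.70 (median 4.51) across the PBS arrays. The groups did not overlap. The probe was detected on 10 of 10 CD33 ASO arrays and on 0 of 8 PBS arrays, so that its level was at least 3.56-fold higher in the CD33 ASO group (fitted difference 2.41 ± 0.19, adjusted p = 1.73e-12). The bound sets the CD33 ASO mean against the higher of the PBS probe's own signal and the lowest detected signal on each array. Control ASO arrays averaged 4.66 ± 0.23 (SD, n = 11), and CD33 ASO minus control ASO was 2.27 (adjusted p = 8.17e-13).

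The 10 and 8 arrays did not overlap for 3 genes that were higher (0.0297% of genes) and 8 that were lower (0.0793%). Avil, Wfdc17 and Aspdh were the higher ones. Dnajc10, Ncam1, Pllp, Opalin, Enpp6, Neu2, Nr1d1 and 1700016K19Rik were the lower ones. Dnajc10, which encodes a disulfide reductase of the endoplasmic reticulum, ranged from 10.25 to 10.54 (median 10.35) in the CD33 ASO group and from 10.74 to 10.89 (median 10.82) in the PBS group. This was a small fall with little spread (-0.45 ± 0.05, adjusted p = 1.16e-08), and it lay between -0.52 and -0.43 within the shared slides. Dnajc10 was the only one of 23 genes of the unfolded protein and integrated stress response that was called. Ncam1, a neural cell adhesion molecule, ranged from 9.16 to 9.71 (median 9.45) in the CD33 ASO group and from 9.93 to 10.03 (median 9.96) in the PBS group, a fall of -0.50 ± 0.06 (adjusted p = 1.06e-06). Aspdh rose by 0.71 ± 0.11 (adjusted p = 8.1e-05), with 7.20 to 8.13 in the CD33 ASO group and 6.76 to 6.96 in the PBS group. Second, dimmer probes for Dnajc10, Ncam1 and Aspdh differed by -0.15, -0.31 and 0.40 and were not called.

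Of the 168 genes called against PBS, 15 were also called in the same direction against control ASO. That contrast has the same 10 CD33 ASO arrays, and 0.277% of all genes were called in it. Control ASO minus PBS, which shares the 8 PBS arrays, was called in the same direction for 50 of the 168 (1.03% of all genes called). For 103 of the 168, neither contrast was called. CD33 ASO minus control ASO was -0.36 for Dnajc10 (adjusted p = 6.93e-07), -0.32 for Ncam1 (adjusted p = 0.00201) and 0.62 for Aspdh (adjusted p = 0.000593). Sh3d21 differed by 0.84 from PBS and by 0.64 from control ASO (adjusted p = 0.00596). Rassf4, a Ras association domain protein, differed by 0.53 from PBS and by 0.54 from control ASO (adjusted p = 0.00295), while its other probes gave 0.57 against PBS (called) and -0.09 (not called). Fam83e differed by 0.68 from PBS and by 0.59 from control ASO (adjusted p = 0.00233), and Mgst1, a membrane-bound glutathione transferase, by 0.47 and 0.36 (adjusted p = 0.0331). Among the falls, Vwf, which encodes von Willebrand factor of endothelium, was -0.60 against PBS and -0.57 against control ASO (adjusted p = 0.00201). It was the 1 called gene among 23 of endothelium and mural cells. Nrbp2 was -0.35 and -0.31 (adjusted p = 0.00093), and Ddah1, an enzyme that degrades asymmetric dimethylarginine, -0.34 and -0.32 (adjusted p = 0.00479). Without the 4 arrays with Thy1 in the WT range, a setting chosen after seeing the data, 12 of the 16 named genes called against control ASO were called again. The exceptions were Fcgr4 (0.95, adjusted p = 0.132), Fam83e (0.53, adjusted p = 0.0544), Mgst1 (0.28, adjusted p = 0.397) and Fpr2 (0.85, adjusted p = 0.0543). Of the 29 named genes called between control ASO and PBS, 27 were called again, and the calls of Mag and Dhcr7 were lost.

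Macrophage genes gave several of the largest rises. Of 15 measured genes of a list of macrophage genes that respond to oligonucleotides, 5 rose (0.822% over all genes) and 0 fell: Lgals3, Wfdc17, Gpnmb, Ms4a7 and Anxa2. The median over the list was 0.21, against 0.00 over all genes. That list was drawn up with earlier results of these arrays in view, so its count is no independent evidence of its direction. The same holds for the counts of the other lists given here, which were also chosen with earlier results known. Lgals3, which encodes the lectin galectin-3 of activated macrophages, ranged from 8.22 to 11.33 (median 9.19) in the CD33 ASO group and from 6.50 to 8.46 (median 6.73) in the PBS group. It rose by 2.24 ± 0.28 (adjusted p = 1.06e-06), and 8 of 10 CD33 ASO arrays were above the highest PBS array, replicate 5. Wfdc17, a whey acidic protein family gene of activated microglia, ranged from 5.79 to 7.17 (median 6.28) in the CD33 ASO group and from 4.52 to 5.49 (median 5.0) in the PBS group. The groups did not overlap (1.40 ± 0.15, adjusted p = 1.16e-08). Gpnmb, a glycoprotein of phagocytes, rose by 1.03 ± 0.19 (adjusted p = 0.00141) and Ms4a7, a marker of border macrophages, by 0.93 ± 0.15 (adjusted p = 0.00026). Anxa2, an annexin, rose by 0.39 ± 0.08 (adjusted p = 0.00659).

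Lgals3, Wfdc17, Gpnmb and Ms4a7 were also higher in the control ASO animals, while Anxa2 was not called between control ASO and PBS. Control ASO minus PBS, a contrast with the same 8 PBS arrays in which 1.03% of genes were called, was 1.98 for Lgals3 (adjusted p = 1.38e-05), 1.13 for Wfdc17 (adjusted p = 4.35e-06), 1.24 for Gpnmb (adjusted p = 7.33e-05) and 1.08 for Ms4a7 (adjusted p = 1.31e-05). CD33 ASO minus control ASO was 0.26 for Lgals3 (adjusted p = 0.809), 0.27 for Wfdc17 (adjusted p = 0.517), -0.21 for Gpnmb (adjusted p = 0.757) and -0.15 for Ms4a7 (adjusted p = 0.782). Fcna, which encodes the macrophage lectin ficolin A, rose by 0.60 against PBS (adjusted p = 0.0249), and was lower than in the control ASO group by -0.94 (adjusted p = 6.27e-05). Its call against PBS was lost in 5 of the 18 fits that each left out 1 array, where the adjusted p reached 0.064. Ms4a6d, which lies in the MS4A cluster with Ms4a7, rose by 0.77 (adjusted p = 0.0231), except that without PBS replicate 2 its adjusted p was 0.066. Ms4a7 and Ms4a6d were the 2 genes called among 19 at human Alzheimer risk loci.

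**Figure D2:**
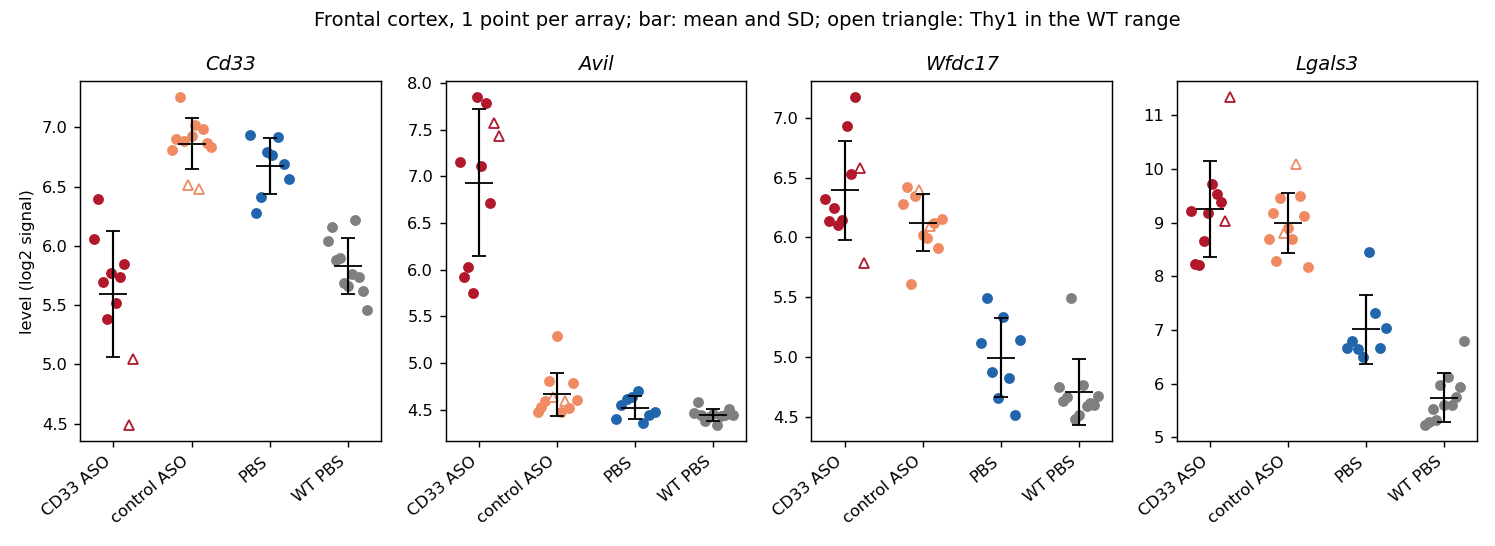
Log2 levels of Cd33, Avil, Wfdc17 and Lgals3 on each frontal cortex array, with the mean and SD of each group (CD33 ASO 10 arrays, control ASO 11, PBS 8, WT PBS 11). Open triangles mark APP/PS1 arrays with Thy1 in the WT range. Avil is high only in the CD33 ASO group, at 5.75 to 7.85, whereas Lgals3 and Wfdc17 are high in both ASO groups.

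Of 10 measured Fc receptor and complement genes, 1 rose and 0 fell. All 10 had a positive difference (5146 of 10094 over all genes), with a median of 0.35. That gene, Fcgr4, encodes an activating receptor for immunoglobulin G. It ranged from 6.88 to 10.95 (median 8.87) in the CD33 ASO group and from 6.30 to 8.71 (median 6.64) in the PBS group, and 6 of 10 CD33 ASO arrays were above the highest PBS array, replicate 5. The difference was 1.83 ± 0.30 (adjusted p = 0.00028) against PBS and 1.43 against control ASO (adjusted p = 0.00418, lost without the arrays with Thy1 in the WT range). Without CD33 ASO replicates 9 and 10 it was 1.48 (adjusted p = 0.000646), and 7 of the 10 genes were then called higher: Fcgr4, C4b, C1qc, C1qa, C1qb, Fcer1g and Fcgr3. Fpr2, a formyl peptide receptor of phagocytes, rose by 0.91 (adjusted p = 0.0492) with CD33 ASO, but its call was lost in 14 of the 18 fits that left out 1 array, and without replicates 9 and 10 it was 0.59 (adjusted p = 0.122).

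Genes of plaque-associated microglia were not called in either direction. Of 25 measured, 0 passed limma's test, 4 had an unadjusted p under 0.05 (1379 of 10094 over all genes), and the median was 0.09. Cst7, a cystatin induced in microglia at plaques, was 5.89 on CD33 ASO replicate 9 and 8.04 on replicate 10, 8.76 to 9.76 on the other CD33 ASO arrays and 8.70 to 9.71 on the PBS arrays, for a difference of -0.36 (adjusted p = 0.836). Without the 2 arrays it was 0.13 (adjusted p = 0.748). Clec7a, which encodes dectin-1, differed by 0.04 (adjusted p = 0.972), and Apoe, a lipid carrier, by -0.09 (adjusted p = 0.677). The Clec7a difference includes CD33 ASO replicate 9, at 5.19, where the next lowest CD33 ASO array had 6.80. Homeostatic microglia genes also gave 0 calls among 18, with 3 at an unadjusted p under 0.05. P2ry12, a purinergic receptor, differed by -0.25 (adjusted p = 0.62) and Tmem119 by 0.26 (adjusted p = 0.384). Without replicates 9 and 10, 4 homeostatic genes were called higher, Tmem119 (0.34, adjusted p = 0.0481), Rnase4, Selplg and Siglech, and 3 plaque-associated genes, Lyz1, Tlr2 and Igf1. App, which encodes the amyloid precursor, differed by -0.08 (adjusted p = 0.673).

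Of 22 measured interferon response genes, 5 rose (0.822% over all genes) and 0 fell: Oasl2, Oas2, Ifitm3, Irf9 and Ifi27. All 22 had a positive difference (5146 of 10094 over all genes), with a median of 0.56. Interferon acts through a transcription factor complex that contains IRF9 and binds interferon-stimulated response elements. Oas2, a sensor of double-stranded RNA, ranged from 5.84 to 7.58 (median 6.35) in the CD33 ASO group and from 4.80 to 6.17 (median 5.47) in the PBS group, a rise of 0.93 ± 0.18 (adjusted p = 0.00177). Oasl2, of the same family, ranged from 8.12 to 11.17 (median 9.03) in the CD33 ASO group and from 7.82 to 9.23 (median 8.03) in the PBS group. Only 2 CD33 ASO arrays were above the highest PBS array, and the rise of 0.95 ± 0.25 (adjusted p = 0.0395) lost its call in 11 of 18 fits that left out 1 array. Ifitm3, which blocks the entry of viruses, rose by 0.66 ± 0.16 (adjusted p = 0.0188), a call lost without PBS replicate 2 or 7, where the adjusted p reached 0.060. Irf9 rose by 0.61 (adjusted p = 0.0267) and Ifi27 by 0.37 (adjusted p = 0.0318), and these calls were lost in 6 and 8 of the 18 fits. Second probes for Irf9 and Oasl2, at 0.48 and 0.60, were not called, while that of Ifi27, at 0.35, was.

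CD33 ASO replicate 10 had the highest array level for Oas2, Oasl2 and Ifitm3. Without replicates 9 and 10, 9 interferon genes were called and the median was 0.45, and among animals collected after 17 days 3 were called. Against control ASO, Oasl2 differed by 0.92 (adjusted p = 0.0766) and Oas2 by 0.55 (adjusted p = 0.163). Oasl2 averaged 9.15 ± 0.82 in the CD33 ASO group, 8.20 ± 0.48 in the PBS group and 6.62 ± 0.44 in the WT group (SD, n = 10, 8 and 11). The promoters in the RefSeq table (GRCm38.p6), which span 250 bases before to 50 after a start site, held 3 of the 5 called genes. The letters GAAA, any 2 bases and GAAA, searched on both strands as an interferon-stimulated response element, were in 1 of those 3, Ifitm3, and in 3.44% of all 32851 promoters. Each motif was searched on its own, and overlap with other motifs was not examined. Some genes have several promoters, so a count of genes is not on the same scale as a share of promoters. The Ifitm3 promoter (chr7:141010695-141010994, minus strand) is shown because it holds 2 matches, in capitals, next to the start site.
Ifitm3: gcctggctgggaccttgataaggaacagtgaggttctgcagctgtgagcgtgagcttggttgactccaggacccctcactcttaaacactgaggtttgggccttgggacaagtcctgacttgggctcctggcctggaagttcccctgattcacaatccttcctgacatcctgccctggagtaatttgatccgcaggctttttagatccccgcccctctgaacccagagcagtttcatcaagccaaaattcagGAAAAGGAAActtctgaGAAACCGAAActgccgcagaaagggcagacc

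Of 18 genes of oligodendrocytes and myelin, 6 fell (0.842% over all genes) and 1 rose (0.822%), and the median was -0.25. Opalin, an oligodendrocyte membrane protein of myelin, ranged from 8.37 to 9.63 (median 9.10) in the CD33 ASO group and from 9.74 to 10.26 (median 10.13) in the PBS group. The groups did not overlap, and the difference was -1.03 ± 0.15 (adjusted p = 3.02e-05). Mog, a glycoprotein of the outer myelin surface, ranged from 7.29 to 8.20 (median 7.63) in the CD33 ASO group and from 8.16 to 8.75 (median 8.46) in the PBS group, a fall of -0.80 ± 0.12 (adjusted p = 5.84e-05). A second Mog probe differed by -0.88 and was also called. Cnp, a phosphodiesterase of myelin, fell by 0.50 ± 0.09 (adjusted p = 0.000483), and Mag by -0.49 ± 0.08. The abundant myelin genes Mbp and Cldn11 fell by 0.18 each (adjusted p = 0.040 and 0.0367), and their calls were lost in 11 and 8 of the 18 fits that left out 1 array. The other Mbp probes disagreed, at -0.49 (called) and 0.20 (not called). Apod, a lipocalin of oligodendrocytes that carries lipids, was the one that rose, by 0.35 (adjusted p = 0.0266), a call lost without CD33 ASO replicate 1, CD33 ASO replicate 6 or PBS replicate 7, where the adjusted p reached 0.091.

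Enpp6, a choline phosphodiesterase that marks newly forming oligodendrocytes, was the 1 called gene of 11 in the list of precursors. It ranged from 5.77 to 6.76 (median 6.41) in the CD33 ASO group and from 6.86 to 7.84 (median 7.26) in the PBS group, a fall of -0.88 ± 0.15 (adjusted p = 0.000275). Outside the lists, Pllp, which encodes the myelin protein plasmolipin, fell by 0.60 ± 0.09 (adjusted p = 2.83e-05). Neu2, a sialidase, fell by 0.58 ± 0.10 (adjusted p = 0.000323). Control ASO minus PBS was -0.93 for Opalin (adjusted p = 0.000162), -0.77 for Enpp6 (adjusted p = 0.00137), -0.64 for Pllp (adjusted p = 1.16e-05) and -0.45 for Cnp (adjusted p = 0.00176), but -0.15 for Mog (adjusted p = 0.757). CD33 ASO minus control ASO was called for Mog (-0.64, adjusted p = 0.00093) and not for Opalin (-0.10, adjusted p = 0.867). Without replicates 9 and 10 the myelin list had 6 genes lower and 1 higher, but the call of Cldn11 was lost and Gal3st1 was gained. Among animals collected after 17 days 4 were lower: Opalin, Mog, Mag and Cnp.

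Of 20 measured genes of cholesterol synthesis, 6 fell (0.842% over all genes) and 0 rose. The median was -0.31, and 18 of these genes had a negative difference. These enzymes turn acetyl-CoA into sterol, and their genes are driven by SREBP2, which binds sterol regulatory elements when sterol in the endoplasmic reticulum is low. Hmgcs1, which makes HMG-CoA near the start of the pathway, ranged from 13.24 to 13.77 (median 13.44) in the CD33 ASO group and from 13.66 to 13.95 (median 13.81) in the PBS group. All CD33 ASO arrays but replicate 3 were below the lowest PBS array, and the fall was -0.36 ± 0.07 (adjusted p = 0.000936). Mvd, which makes isopentenyl pyrophosphate, fell by 0.55 ± 0.13 (adjusted p = 0.0129), and Dhcr7, which catalyses a last step to cholesterol, by -0.38 ± 0.09 (adjusted p = 0.0156), a call lost without PBS replicate 1 (adjusted p = 0.055). Insig1, which holds SREBP in the endoplasmic reticulum and is itself a target of it, fell by 0.54 ± 0.11 (adjusted p = 0.0057). Its other probes, at -0.36 and -0.02, were not called. Nsdhl (-0.49, adjusted p = 0.0317) and Sqle (-0.34, adjusted p = 0.0429), a pair of sterol enzymes, lost their calls in 8 and 11 of the 18 fits that left out 1 array. Without replicates 9 and 10, 4 genes were called: Hmgcs1, Insig1, Mvd and Dhcr7. Among animals collected after 17 days 3 were called, Hmgcs1, Insig1 and Scd2, while Mvd was -0.51 (adjusted p = 0.0536) and Dhcr7 -0.33 (adjusted p = 0.0843). With slide as a block 8 were called. Control ASO minus PBS was -0.25 for Hmgcs1 (adjusted p = 0.0409) and -0.48 for Mvd (adjusted p = 0.0396). The letters TCACNCCAC, searched on both strands as a sterol regulatory element, were in 1 of the 5 called genes that the promoter table held and in 1.24% of all promoters. That promoter, of Hmgcs1 (chr13:119690101-119690400, plus strand), is shown with its match in capitals.
Hmgcs1: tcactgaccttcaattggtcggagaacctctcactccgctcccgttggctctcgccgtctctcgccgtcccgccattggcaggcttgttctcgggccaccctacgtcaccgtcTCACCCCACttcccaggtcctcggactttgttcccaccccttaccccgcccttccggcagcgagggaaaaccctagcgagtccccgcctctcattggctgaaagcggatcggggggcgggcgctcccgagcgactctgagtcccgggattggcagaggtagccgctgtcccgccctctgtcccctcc

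**Figure D3:**
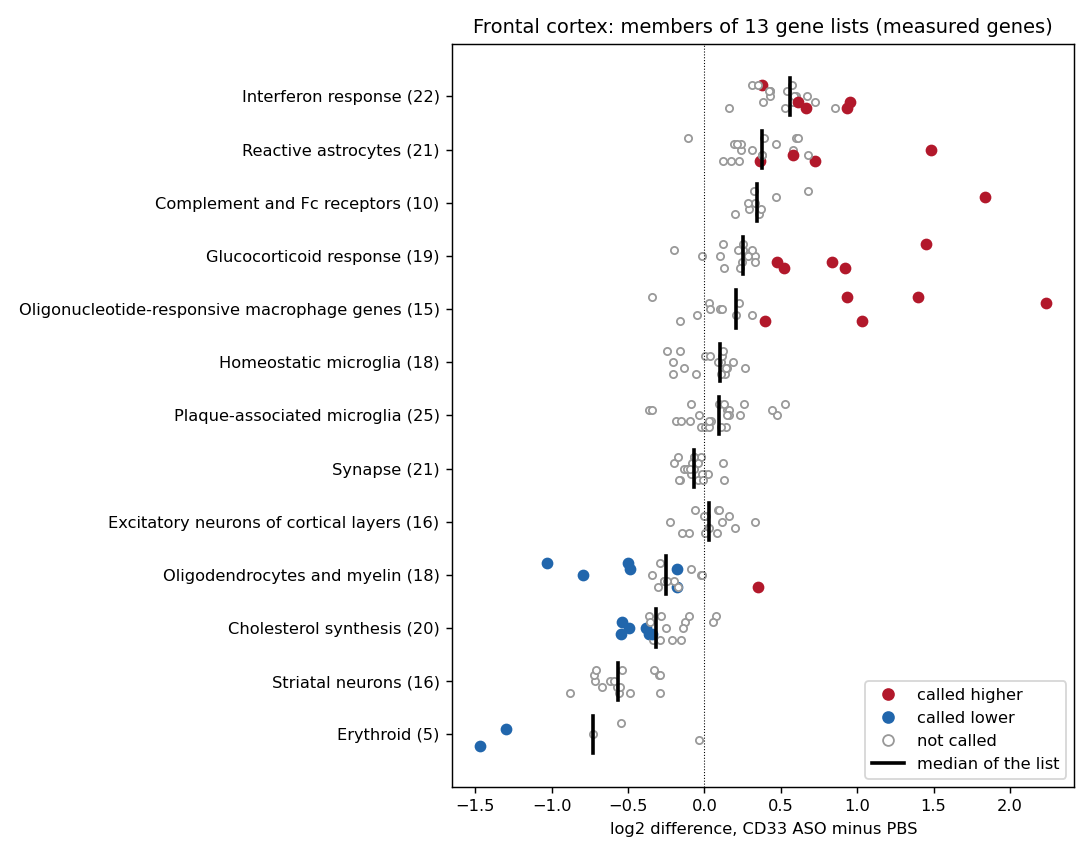
Log2 difference CD33 ASO minus PBS for each measured gene of 13 gene lists, with the number of genes in brackets. Filled circles are called genes, open circles genes not called, and bars the medians of the lists. All 22 interferon genes lie right of 0, and 18 of 20 cholesterol genes and all 16 striatal genes lie left of it.

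Of 19 measured genes that respond to glucocorticoids, 5 rose (0.822% over all genes) and 0 fell, with a median of 0.25. Plin4, a lipid droplet coat protein, ranged from 6.09 to 8.75 (median 8.17) in the CD33 ASO group and from 5.45 to 7.20 (median 6.38) in the PBS group, a rise of 1.45 ± 0.34 (adjusted p = 0.0174). Its call was lost without PBS replicate 7 (adjusted p = 0.053) and without CD33 ASO replicates 9 and 10 (1.25, adjusted p = 0.0557). Angptl4, an inhibitor of lipoprotein lipase, ranged from 6.94 to 8.79 (median 8.01) in the CD33 ASO group and from 6.62 to 7.18 (median 7.03) in the PBS group, and rose by 0.92 ± 0.20 (adjusted p = 0.00857). Sult1a1, a sulfotransferase, rose by 0.84 ± 0.18 (adjusted p = 0.00659) and Sgk1, a kinase that regulates ion channels, by 0.52 ± 0.12 (adjusted p = 0.0107). Fkbp5, a co-chaperone of the glucocorticoid receptor, rose by 0.47 (adjusted p = 0.0492), a call lost in 13 of the 18 fits that left out 1 array. All 5 genes were also high in the control ASO group: control ASO minus PBS was 2.30 for Plin4 (adjusted p = 4.05e-05), 0.80 for Angptl4 (adjusted p = 0.0323), 1.03 for Sult1a1 (adjusted p = 0.000546), 0.63 for Sgk1 (adjusted p = 0.00107) and 0.56 for Fkbp5 (adjusted p = 0.0138). The letters GNACA, any 3 bases and TGTNC, a glucocorticoid response element that reads the same on both strands, were in 1 of the 4 genes in the promoter table and in 0.475% of all promoters. The match lies at 1 of the 6 promoters of Sgk1 (chr10:21993640-21993939, plus strand) and is in capitals. With several promoters for a gene, the count of genes and the share of promoters are unlike measures.
Sgk1: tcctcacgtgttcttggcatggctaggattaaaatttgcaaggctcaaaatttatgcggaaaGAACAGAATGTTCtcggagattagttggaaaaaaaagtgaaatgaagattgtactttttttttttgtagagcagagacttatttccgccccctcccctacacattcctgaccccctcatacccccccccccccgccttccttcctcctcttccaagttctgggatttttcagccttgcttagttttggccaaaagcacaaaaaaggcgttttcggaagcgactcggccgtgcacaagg

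Of 21 genes of reactive astrocytes, 4 rose (0.822% over all genes) and 0 fell. The median was 0.38, and 20 had a positive difference (5146 of 10094 over all genes). Serpina3n, a secreted protease inhibitor, ranged from 9.98 to 11.31 (median 10.78) in the CD33 ASO group and from 9.60 to 10.55 (median 10.02) in the PBS group, a rise of 0.72 ± 0.13 (adjusted p = 0.000899). Amigo2, an adhesion protein, rose by 0.36 ± 0.08 (adjusted p = 0.0066). Lcn2, an iron-scavenging lipocalin, was detected on 10 of 10 CD33 ASO arrays and on 3 of 8 PBS arrays and rose by 1.48 ± 0.38 (adjusted p = 0.0335). The call was lost in 10 of the 18 fits that left out 1 array, and without replicates 9 and 10 it was 1.11 (adjusted p = 0.0829). Hspb1, a small heat shock protein, rose by 0.58 (adjusted p = 0.048), but lost its call with slide as a block (0.51, adjusted p = 0.066). Gfap, the filament of reactive astrocytes, differed by 0.12 (adjusted p = 0.872). Etnppl, an ethanolamine phosphate lyase of astrocytes that is in no list, rose by 0.97 ± 0.21 (adjusted p = 0.00675), with a control ASO minus PBS difference of 1.07 (adjusted p = 0.00219).

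The largest falls included red cell genes. Alas2, the enzyme that starts haem synthesis in red cells, ranged from 5.31 to 8.07 (median 6.52) in the CD33 ASO group and from 6.06 to 9.32 (median 8.09) in the PBS group. The groups overlapped, with 3 CD33 ASO arrays below the lowest PBS array. The fall was -1.47 ± 0.34 (adjusted p = 0.0151), and its adjusted p was 0.0501 without PBS replicate 2. Hbb-bt, a beta globin, fell by 1.30 ± 0.35 (adjusted p = 0.0418), a call lost in 11 of the 18 fits that left out 1 array. Both were called among 5 erythroid genes, and all 5 had a negative difference. Control ASO minus PBS was -1.48 for Alas2 (adjusted p = 0.0142) and -1.25 for Hbb-bt (adjusted p = 0.0601).

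Several of the largest falls were of genes known from cholinergic neurons, set together here after their values were seen. Slc5a7, the high-affinity choline transporter, was detected on 2 of 10 CD33 ASO arrays and 7 of 8 PBS arrays. It ranged from 4.49 to 5.11 (median 4.80) in the CD33 ASO group and from 4.81 to 6.64 (median 5.76) in the PBS group, a fall of -0.93 ± 0.21 (adjusted p = 0.0117). Chat, which makes acetylcholine, fell by 0.80 ± 0.21 (adjusted p = 0.0325) and Slc10a4, a vesicle protein of these neurons, by -1.06 ± 0.28 (adjusted p = 0.037). Their calls were lost in 8 and 10 of the 18 fits that left out 1 array, and all of these falls were smaller and not called among animals collected after 17 days (-0.74, adjusted p = 0.118, for Slc5a7). Ngfr, the p75 neurotrophin receptor, ranged from 5.09 to 6.19 (median 5.87) in the CD33 ASO group and from 6.10 to 7.01 (median 6.57) in the PBS group, a fall of -0.78 ± 0.16 (adjusted p = 0.0057). Of the 7 measured genes of this group, these 4 were called lower. The other 3, Isl1, Lhx8 and Ache, lay between -0.67 and -0.21 and were not called. PBS replicate 4 had the lowest PBS level of Slc5a7, 4.81, which lay inside the range of the CD33 ASO group.

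Of the 16 striatal marker genes, 0 were called by limma and 14 had an unadjusted p under 0.05 (1379 of 10094 over all genes). All 16 differences were negative, with a median of -0.56. The list's median was -0.51 for control ASO minus PBS, which shares the 8 PBS arrays, and -0.03 for CD33 ASO minus control ASO. Scn4b, a sodium channel subunit, differed by -0.72 (adjusted p = 0.0598) and Drd2, a dopamine receptor, by -0.72 (adjusted p = 0.0805). With slide as a block Scn4b was called (-0.82, adjusted p = 0.0286). The part of striatal tissue in the falls of the cholinergic genes was not tested. Tnnc1, a troponin subunit, fell by 0.96 ± 0.17 (adjusted p = 0.00049), with 7.85 to 9.73 (median 8.94) in the CD33 ASO group and 9.38 to 10.25 (median 9.81) in the PBS group. Inmt, a methyltransferase, fell by 0.87 ± 0.17 (adjusted p = 0.00225), and Dmkn, which encodes dermokine, by -0.88 ± 0.225 (adjusted p = 0.0317), a call lost in 7 of the 18 fits that left out 1 array.

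**Figure D4:**
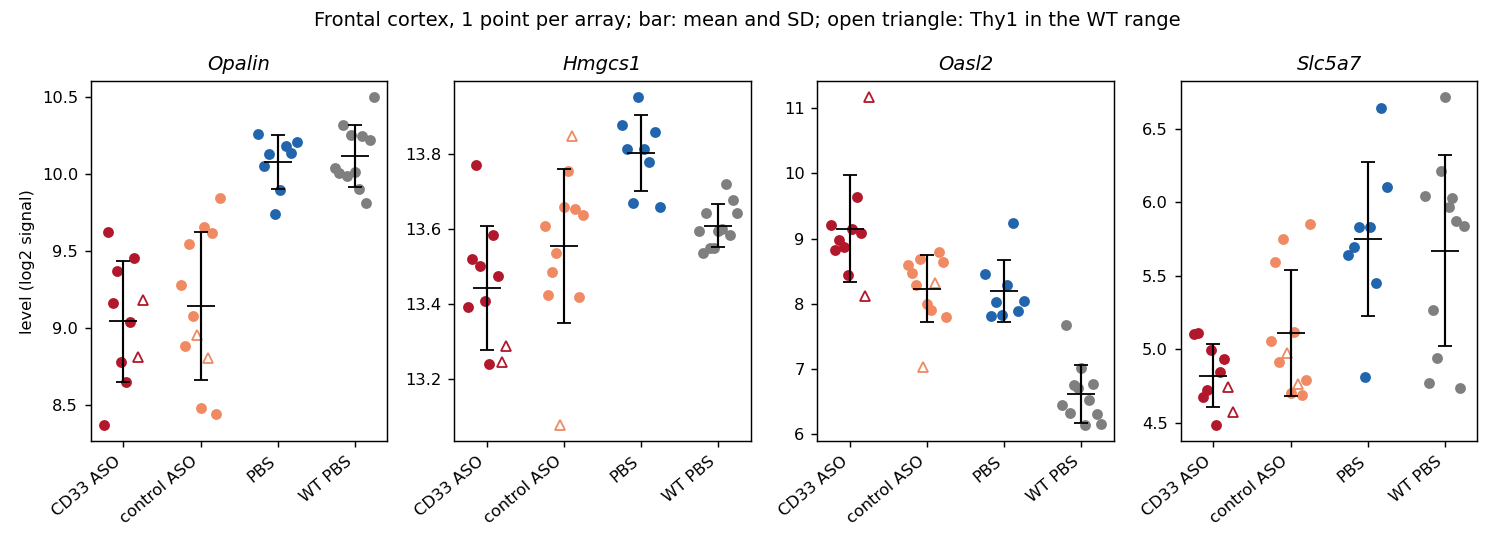
Log2 levels of Opalin (myelin), Hmgcs1 (cholesterol synthesis), Oasl2 (interferon response) and Slc5a7 (cholinergic neurons) on each frontal cortex array, with the mean and SD of each group (CD33 ASO 10 arrays, control ASO 11, PBS 8, WT PBS 11). Open triangles mark APP/PS1 arrays with Thy1 in the WT range. For Opalin the highest CD33 ASO array, 9.63, is below the lowest PBS array, 9.74.

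Of 13 measured clock genes, a group put together after values were seen, 3 fell and 10 were not called. Nr1d1, the circadian repressor REV-ERB alpha, ranged from 8.50 to 8.98 (median 8.78) in the CD33 ASO group and from 9.02 to 9.41 (median 9.20) in the PBS group, a fall of -0.45 ± 0.08 (adjusted p = 0.00103). Ciart, a circadian repressor, fell by 0.57 ± 0.12 (adjusted p = 0.00659) and Dbp, a transcription factor driven by the clock, by -0.35 ± 0.09 (adjusted p = 0.0251). The Dbp call was lost without PBS replicate 2, CD33 ASO replicate 7 or PBS replicate 8, where the adjusted p reached 0.060. A second Nr1d1 probe differed by -0.30 and was not called. The 10 other clock genes lay between -0.20 (Per1) and 0.24 (Arntl), among them Per2 at 0.04, Cry2 at -0.05 and Clock at -0.02. Among 13 heat shock and cold response genes, 2 rose and 1 fell. Cirbp, an RNA-binding protein induced by cold, fell by 0.56 ± 0.12 (adjusted p = 0.00751), while the heat shock gene Dnajb1 rose by 0.20 (adjusted p = 0.0367), a call lost in 7 of the 18 fits that left out 1 array. The control ASO minus PBS differences were -0.49 for Nr1d1 (adjusted p = 0.000372), -0.55 for Ciart (adjusted p = 0.00962) and -0.47 for Cirbp (adjusted p = 0.0402). The hour of collection was not used here. The E-box CACGTG, which clock factors bind and which reads the same on both strands, was in 1 of these 3 clock gene promoters and in 7.15% of all promoters. The promoter of Ciart (chr3:95882179-95882478, minus strand) held 3 matches, in capitals.
Ciart: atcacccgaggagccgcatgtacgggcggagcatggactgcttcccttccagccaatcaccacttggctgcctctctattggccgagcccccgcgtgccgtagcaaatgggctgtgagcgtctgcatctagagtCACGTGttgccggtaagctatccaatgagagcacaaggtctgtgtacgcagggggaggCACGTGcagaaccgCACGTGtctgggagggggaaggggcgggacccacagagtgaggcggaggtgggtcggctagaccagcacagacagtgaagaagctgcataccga

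The cortical differences were set against those in the hippocampus, with 9 CD33 ASO and 8 PBS arrays there and animal as a random block. The animal of cortical CD33 ASO replicate 10 had no hippocampal array, and the other animals of both groups gave both tissues. Of 15290 probes, 19 (0.124%) differed between the tissues, 7 of them with a higher value in the cortex. The leading cortical changes did not pass this test. Cd33 differed by -1.08 in the cortex and by -1.43 in the hippocampus (difference 0.35 ± 0.18, adjusted p = 0.667), where its probe was detected on 2 of the 9 CD33 ASO and 8 of the 8 PBS hippocampal arrays. Avil differed by 2.41 and 2.70 in that order of tissues (adjusted p = 0.825), Fcgr4 by 1.83 and 2.36 (adjusted p = 0.801), Lgals3 by 2.24 and 1.87 (adjusted p = 0.864), and Opalin by -1.03 and -1.38 (adjusted p = 0.722). A p above the threshold does not show that the tissues were alike. The SE of these differences ran from 0.18 to 0.41. In the hippocampus Avil was detected on 9 of 9 CD33 ASO arrays and 0 of 8 PBS arrays, so for Cd33 and Avil the background limits the size of a difference and with it this test. In the hippocampus, where 4.18% of probes were called in the same model, the call counts were 14 of 22 for interferon genes and 9 of 10 for complement and Fc receptor genes, and both were all higher.

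The tissues differed for 3 of the 168 genes called in the cortex. Tnnc1 was -0.96 in the cortex and 0.08 in the hippocampus (adjusted p = 0.00462), Slc5a7 -0.93 and 0.05 (adjusted p = 0.0459), and Ngfr -0.78 and 0.13 (adjusted p = 0.0459). Tnnc1 was called again without the animal block, in animals with both tissues and without the animals with Thy1 in the WT range, with an adjusted p of at most 0.0119. Slc5a7 was called under none of these settings (adjusted p = 0.0812, 0.0688 and 0.113), nor was Ngfr (adjusted p = 0.0812, 0.084 and 0.142). The Slc5a7 probe was detected on 0 of the 9 CD33 ASO and 0 of the 8 PBS hippocampal arrays. Cholesterol genes had a median of -0.31 in the cortex and -0.08 in the hippocampus, where 0 of 20 were called by limma, and none of the 20 passed the test of the difference. Mvd came to -0.55 in the cortex and -0.04 in the hippocampus (difference -0.50 ± 0.15, adjusted p = 0.261). Striatal genes had a median of -0.56 in the cortex and -0.05 in the hippocampus.

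**Figure D5:**
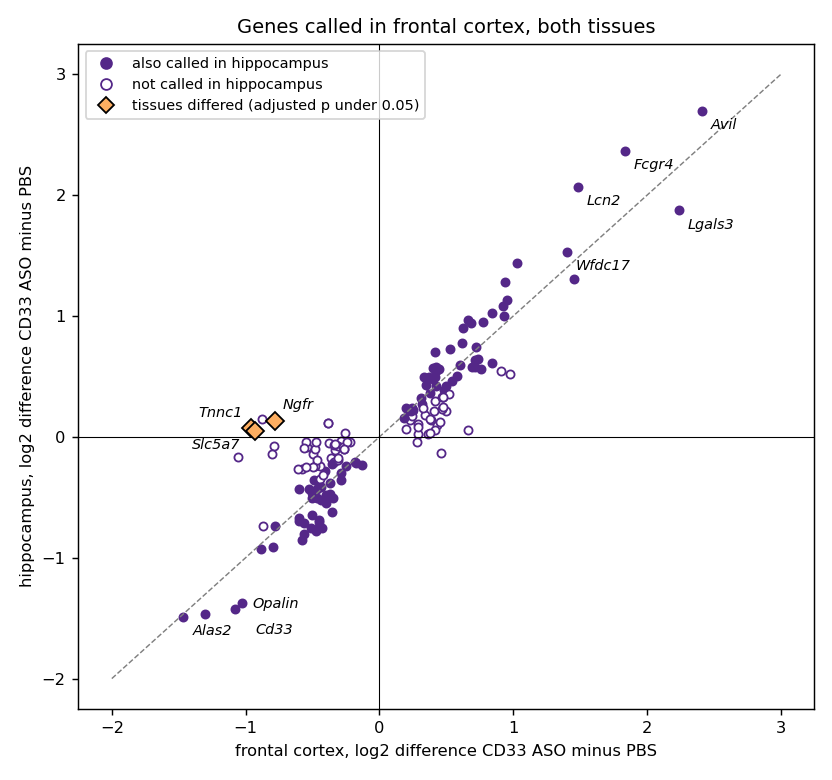
The 168 genes called in frontal cortex, with their log2 difference CD33 ASO minus PBS in frontal cortex (10 and 8 arrays) and in hippocampus (9 and 8 arrays). Filled circles were also called in hippocampus, open circles were not, and diamonds mark Tnnc1, Slc5a7 and Ngfr, for which the tissues differed. The dashed line marks equal values. Both tissues came from the same animals, except that cortical CD33 ASO replicate 10 had no hippocampal array.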

How the data were processed

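Total RNA from mouse tissue was hybridised to Illumina bead arrays, and the authors deposited non-normalized probe intensity values with a detection p-value for each probe and array, per the file headers. A second deposited table held the authors' log2 values, which had the same sorted values on every array of a tissue. BeadStudio, GenomeStudio and Partek are named in the submitters' processing notes, with versions not given in the sources used here. Intensities of all 79 arrays were background-corrected and quantile-normalised with neqc (offset 16) in limma 3.58.1 under R 4.3.3. The 40 cortical arrays were fitted with 1 mean per group, an intensity trend and no block. P-values of limma's moderated test were adjusted over 14581 probes by the Benjamini-Hochberg method. The permutation test used scipy 1.17.1, and figures used matplotlib 3.10.9. The script was tested on simulated data.

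The labels give 10 animals per group, while the arrays number 10 for CD33 ASO and 8 for PBS. Names came from the platform annotation, and 13748 of the tested probes had one. The text names Cd33, Thy1, App, the 12 called genes with the greatest increase and the 12 with the greatest decrease, up to 4 called members of each list, fixed genes given whatever their value, and the 5 largest tissue differences each way. Named after their values were seen were Ncam1, Pllp, Neu2, Nr1d1, Aspdh, 1700016K19Rik, Mbp, Cldn11, Sqle, Hmgcs1, Fkbp5, Anxa2, Ifi27, Ciart, Dbp, Ngfr, Isl1, Lhx8, Ache, Sh3d21, Rassf4, Fam83e, Nrbp2, Mgst1, Ddah1, Fpr2, Fcna, Per1, Per2, Arntl, Cry2 and Clock, and list members cited beside a list's count. The comparison and all lists were chosen with earlier results of these data known. Alternatives covered background correction, normalisation, the detection filter, blocks for slide, session and replicate, array weights, the authors' table and the left-out arrays. Leaving out the arrays with Thy1 in the WT range from the control ASO contrasts was added after seeing the data. The precision is limited by the number of arrays.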

Additional observations from a re-analysis of the deposited data

Results flagged for a closer look

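Single arrays stood far from the rest of their group in 20 of 160 combinations of gene and group, where chance gives about 1 in 20. CD33 ASO replicate 10, one of the animals with Thy1 in the WT range, was highest for Lgals3 (11.33), Oas2 (7.58), Ifitm3 (12.99) and Oasl2 (11.17). CD33 ASO replicate 9, the other one, was lowest for Cst7 (5.89) and Clec7a (5.19). Other CD33 ASO arrays apart from their group were replicate 3 for Insig1 (6.48), replicate 4 for Enpp6 (5.77) and replicate 8 for Amigo2 (8.28).

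In the PBS group, replicate 5 was highest for Lgals3 (8.46), Fcgr4 (8.71), Fam83e (5.23) and Fpr2 (6.42). PBS replicate 7, collected 14 days after surgery, was highest for Neu2 (9.99) and lowest for Anxa2 (9.45) and Angptl4 (6.62). PBS replicate 4 was high for 1700016K19Rik (7.31) and low for Scn4b (10.35), PBS replicate 6 was high for Oasl2 (9.23), and PBS replicate 2 was low for Clec7a (6.20).

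The difference between CD33 ASO and PBS was tested as cortex minus hippocampus, and the 5 largest of each sign among the genes that passed are given here. Cort, which encodes the neuropeptide cortistatin, had the largest positive one, 1.33 ± 0.27 (SE, adjusted p = 0.0164), with -0.27 in the cortex and -1.60 in the hippocampus. In the hippocampus Cort averaged 6.67 ± 0.74 in the CD33 ASO group and 8.27 ± 0.30 in the PBS group (SD, n = 9 and 8). Npy, another interneuron peptide, differed by 0.67, with 0.10 in the cortex and -0.57 in the hippocampus. Brcc3 (0.67), Krt12 (0.65) and Igfbp4 (0.45) followed, and their cortical differences were -0.05, -0.25 and 0.00. Glycam1 had the largest negative one, -1.16, with 0.16 in the cortex and 1.31 in the hippocampus. The next were Tnnc1 (-1.03), Batf3 (-1.03), Slc5a7 (-0.98) and Ngfr (-0.91). Without the animals with Thy1 in the WT range, Slc5a7 (-0.95, adjusted p = 0.113), Ngfr (-0.81, adjusted p = 0.142), Brcc3 (adjusted p = 0.105) and Igfbp4 (adjusted p = 0.125) no longer passed the test. The causes of these differences were not tested.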

How the results depend on the processing

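The count of 217 probes was 104 when only the 18 arrays were fitted and 121 with median centring, and leaving out single arrays gave 140 to 250. It was 320 without the animals with Thy1 in the WT range, 314 with slide as a block, 193 among animals collected after 17 days and 220 in the authors' table. The fits on fewer arrays have fewer residual degrees of freedom, and other causes were not tested. Of the 168 called genes, 80 stayed called in every one of the 18 fits that left out 1 array, 71 also under the slide block and both restrictions on animals, and 0 changed sign under any setting. Cd33 lay between -1.17 and -0.96 when single arrays were left out. It was -2.77 (adjusted p = 0.224) with no background correction, the only setting that ended its call. Trem2 turned to 0.17 without the animals with Thy1 in the WT range, 0.17 with the replicate block and 0.22 among animals collected after 17 days. Each of these settings takes CD33 ASO replicates 9 and 10 out of the estimate, so they are not separate checks. Cst7 turned to 0.13, 0.13 and 0.19 under these settings, and Clec7a ran from -0.0599 to 0.236 when single arrays were left out, below 0 without PBS replicate 2 or CD33 ASO replicate 2. The count of 19 tissue differences was 6 with no animal block and 6 in animals with both tissues. Dimmer second probes of Ciart (-0.59), Ms4a6d (0.65) and Etnppl (0.84) were also called in the cortex. Those of Gpnmb (0.31), Cnp (-0.30), Sqle (-0.41), Mgst1 (0.23) and 1700016K19Rik (-0.05) were not called. The further probes of Dmkn (-0.62 and 0.10), Ccng1 (0.25 and 0.11) and Nsdhl (-0.41, -0.30 and -0.25) were not called either.

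The replicate numbers did not pair the samples: over 8 pairs the correlation of deviations ran from -0.169 to 0.167, and 1 array correlated best with its own number. The fit with the replicate number as a block gave 215 probes, 129 of them shared, and -0.87 for Cd33 (adjusted p = 0.00676). CD33 ASO replicates 9 and 10 have no partner in that fit. For dim probes such as Avil in the PBS group, the signal over background limits the size of a difference.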

Other observations

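Markers of cells next to the dissected cortex gave few calls. Of 8 blood leukocyte genes, 0 were called by limma and 4 had an unadjusted p under 0.05. S100a8, a neutrophil alarmin, differed by 0.85 (adjusted p = 0.104) and was detected on 10 of 10 CD33 ASO and 2 of 8 PBS arrays. Cd79b, a B cell receptor subunit, differed by 0.49 (adjusted p = 0.0539), with detection on 10 and 4 arrays. Of 8 border macrophage genes only Ms4a7 was called, and Mrc1, their mannose receptor, differed by -0.36 (adjusted p = 0.147). Choroid plexus and ependymal genes gave 0 calls among 8, with 3 at an unadjusted p under 0.05, and Ttr, the transthyretin of choroid plexus, differed by 0.08.

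Lists of excitatory neurons, synapses, the respiratory chain and ribosomal proteins had medians near 0, unlike the striatal neuron list, at -0.56. The medians were 0.03 over 16 genes of excitatory neurons, -0.07 over 21 synaptic genes, 0.00 over 24 genes of the respiratory chain and 0.05 over 19 ribosomal protein genes, with 0 called in each. Their counts at an unadjusted p under 0.05 were 1, 1, 0 and 3. Of the 21 synaptic genes, 3 had a positive difference. Lysosomal genes had a median of 0.11, with 25 of 28 positive, 0 called and 6 at an unadjusted p under 0.05. Without CD33 ASO replicates 9 and 10, 4 lysosomal genes were called. Among 15 p53 targets only Ccng1, which encodes cyclin G1, was called (0.24, adjusted p = 0.0325), and its call was lost in 8 of the 18 fits that left out 1 array. A further 15 called probes had no gene name here.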
